A study of Mus musculus with 3 samples.

Results

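Cells rich in MHC class II transcripts and poor in complement C1q transcripts were selected from single-cell RNA profiles of mouse islets of Langerhans, and 66 of 7490 kept cells (66 of 16162 deposited barcodes) qualified. A kept barcode had at least 500 detected genes and at most 15% of its unique molecular identifiers (UMIs, counted RNA molecules) from mitochondrial genes. A selected cell carried at least 2 UMIs of each of H2-Aa, H2-Ab1 and Cd74, at most 1 UMI in total of C1qa, C1qb and C1qc, at least 1 UMI of Ptprc, Itgax or Flt3, and under 20% of its UMIs from Ins1, Ins2, Gcg, Sst and Ppy. These genes chose the cells, so their levels are given only as a description. The 3 libraries came from 3 NOD-SCID mice, all female, non-diabetic and 10 to 11 weeks old, with 1 library of islets per mouse and no treatment named. They form 1 group, so cell classes were compared within mice. NOD-SCID mice carry the scid mutation on the diabetes-prone NOD background and lack mature T and B lymphocytes. Islets were freed with collagenase, purified on a density gradient and dissociated, so cells attached to the islets from neighbouring pancreas may be included.

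Dendritic cells take up proteins, cut them into peptides and show these on MHC class II molecules to CD4 T cells. Conventional dendritic cells fall into type 1 (cDC1), which depend on the transcription factors Irf8 and Batf3 and present captured antigen to CD8 T cells, and type 2 (cDC2), which favour CD4 T cells. After activation both types can become mature cells that carry Ccr7, the receptor that guides them to lymph nodes. In NOD mice islet antigens reach T cells through such cells.

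The libraries differed in depth and purity. Kept cells had medians of 6164, 5571 and 11571 UMIs in mice 1, 2 and 3, and numbered 1145, 2705 and 3640. The selected cells had a median of 11529.5 UMIs (range 1027 to 25612), 2718.5 genes and 3.09% mitochondrial UMIs. They summed to 3592, 114747 and 611570 UMIs in the 3 mice, and the first of these sums is a single cell. Mice 1 and 2 shared 148 barcode sequences and the other pairs shared 9 and 13; 1 selected cell, from mouse 2, carried a shared barcode. Insulin RNA was present in every library: the median share of Ins1 and Ins2 in the selected cells was 13.2%, 2.67% and 0.707% of UMIs in mice 1, 2 and 3, and that of 10 acinar genes 1.5%, 1.27% and 0.118%. The part of this free RNA in the results was not tested.

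Among the genes that chose the cells, H2-Aa had between 6 and 348 UMIs per cell with a median of 159. H2-Ab1 had a median of 156.5 (3 to 350), and Cd74, the invariant chain that escorts class II molecules, a median of 379.5 (12 to 815). Class II RNA was thus far above the threshold in most cells. The leukocyte gene Ptprc (CD45) was detected in 62 of 66 cells, the integrin Itgax (CD11c) in 37 and Flt3, the receptor for the main dendritic growth factor, in 36. All 3 were detected in 22 cells and only 1 of them in 19. Near the thresholds, no selected cell lay at 2 UMIs of its lowest class II gene, and 1 cell with 1 UMI stayed outside. For C1q, 10 selected cells carried 1 UMI and 7 cells with 2 UMIs stayed outside. The hormone threshold had 1 selected cell between 15% and 20% and none between 20% and 25%.

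H2-Eb1, a class II beta chain that is not in the rule, was detected in 65 of 66. Class II genes share control, so the choice by H2-Aa and H2-Ab1 also favours H2-Eb1. It had medians of 115.5, 125.5 and 120.5 UMIs per cell in the cDC1-marked, cDC2-marked and mature-marked cells of mouse 3, subsets defined further on. The 4 promoter stretches here are shown because class II genes share a short upstream control region that is bound by the factors recruiting Ciita, the class II transactivator; its CCAAT-type element, searched as TGATTGG, is in capitals. The sequences are from RefSeq (GRCm38.p6), written along the strand of the gene.
H2-Aa, chr17:34287834-34287933, minus strand: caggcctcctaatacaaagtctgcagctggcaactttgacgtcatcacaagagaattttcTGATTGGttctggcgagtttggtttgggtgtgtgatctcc
H2-Eb1, chr17:34305746-34305845, plus strand: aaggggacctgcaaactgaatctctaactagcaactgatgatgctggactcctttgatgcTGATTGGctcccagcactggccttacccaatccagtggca
H2-DMb1, chr17:34153068-34153167, plus strand: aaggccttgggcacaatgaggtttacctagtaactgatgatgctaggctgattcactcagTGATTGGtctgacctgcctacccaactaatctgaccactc
H2-Ob, chr17:34238786-34238885, plus strand: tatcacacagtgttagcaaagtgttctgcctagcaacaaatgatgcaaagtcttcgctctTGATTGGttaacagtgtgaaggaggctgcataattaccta
The element starts 50, 61, 63 and 59 bases before the annotated gene start in the order shown. Of 9 class II genes looked for, 8 had an entry, and 7 of the 8 held TGATTGG within the window from 250 bases before to 50 bases after the start. The exception, H2-DMa, had 2 listed promoters and the letters in neither. Over all 32851 promoters of the table, 2568 (7.82%) held the letters on either strand.

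The partners of class II loading differed between subsets in mouse 3, given as CPM (summed UMIs of a gene, scaled to a common total of all genes) in the 28 cDC1-marked, 20 cDC2-marked and 6 mature-marked cells. H2-Eb1 stood at 9646, 12323 and 9440 CPM. H2-DMa, which helps exchange the invariant chain peptide for antigen, stood at 762, 904 and 168 CPM, and its partner H2-DMb1, a near copy of H2-DMb2 whose reads may be misassigned, at 721, 835 and 168 CPM. The mature-marked cells were thus near the cDC1-marked cells in H2-Eb1 and lower than both others in the peptide exchange chains. Ciita stood at 118, 155 and 84 CPM, and Ctss, a protease that trims the invariant chain, at 468, 1257 and 1106 CPM. H2-Eb2 was the class II gene that was highest in mature-marked cells, at 266 CPM (95% Poisson interval 160 to 416) against 14.7 and 10.7 CPM. All such intervals cover counting error only, since each subset level comes from 1 mouse.

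The selected cells were spread unevenly over the mice. Mouse 1 gave 1 cell, mouse 2 gave 9 and mouse 3 gave 56. Their share of kept cells was 0.0873% in mouse 1 (95% exact binomial interval 0.00221 to 0.486), 0.333% in mouse 2 (0.152 to 0.631) and 1.54% in mouse 3 (1.16 to 1.99), with a mean of 0.653% ± 0.777 (SD, n = 3). The interval of mouse 3 overlapped neither of the others. C1q-rich macrophage-like cells, defined by at least 3 C1q UMIs from at least 2 of the 3 genes and detected Ptprc, Csf1r or Adgre1, made up 1.31%, 1.74% and 3.35% of kept cells, so the selected cells numbered 0.0667, 0.191 and 0.459 per macrophage-like cell. Mouse 3 was therefore highest in both classes. It was also the library with the deepest kept cells, and the part of depth in these shares was not tested.

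**Figure D1:**
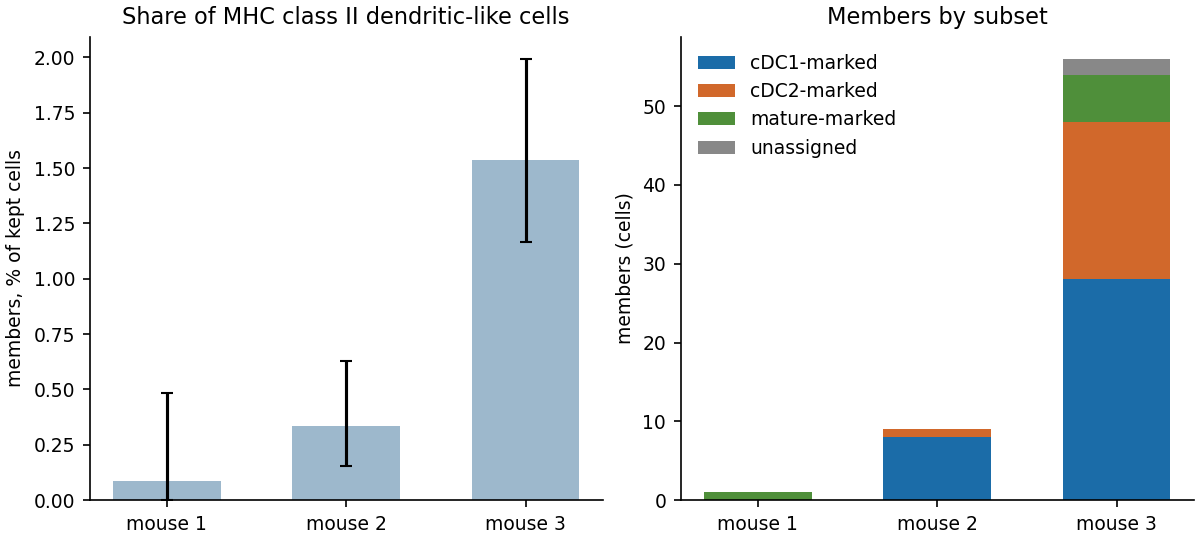
The left panel plots the selected cells as percent of kept cells in each mouse with 95% exact binomial intervals, and the right panel plots their number by subset. Mouse 3 holds 56 of the 66 cells, and all but 1 of the cDC2-marked cells.

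The dendritic label was checked against markers of other cell types. Of 8 B cell genes, 5, including Pax5, Igkc, Cd79a and Cd79b, had no UMI in any selected cell and no cell carried 2 or more. At least 1 B cell gene was detected in 26 of the 66 cells, and Ighm had 57 UMIs in them. Of 8 T and NK cell genes, 6, including Cd3d and Cd3e, had no UMI, and 1 cell carried 2. The summed level of a macrophage list of 12 genes, C1q included, was 0, 514 and 953 CPM in the selected cells of mice 1, 2 and 3, against 36682, 38030 and 37469 CPM in macrophage-like cells. A monocyte list of 12 genes summed to 0, 776 and 1261 CPM against 10048, 6478 and 8270 CPM, and the monocyte-macrophage genes F13a1, Vcan and Mertk had no UMI. The cells thus lacked most of the lymphocyte markers looked for. In NOD-SCID mice, which lack mature T and B lymphocytes, this says little about the label. Macrophage and monocyte genes stood at summed levels below those of macrophage-like cells. The macrophage list holds C1q, Adgre1 and Csf1r and the monocyte list Csf1r. Those genes were used in choosing the classes, so part of the gap was set by the choice. Cell by cell, 29 of 66 carried 3 or more monocyte genes, among them 16 of the 21 cDC2-marked cells described further on. The monocyte list stood at 2156 CPM in the cDC2-marked cells of mouse 3.

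Each cell was marked by the subset list of which it had the most detected genes, given at least 2 genes and a lead of at least 1 over every other list. With 12 genes per conventional list, 36 of 66 cells were cDC1-marked (54.5%, exact binomial interval 41.8 to 66.9), 21 cDC2-marked (31.8%, 20.9 to 44.4) and 7 mature-marked (10.6%, 4.37 to 20.6). None was marked as plasmacytoid by a list of 7 genes, and a count of 0 among 66 allows a share of up to 4.55% by the limit of 3 counts. The remaining 2 cells were unassigned. In mouse 2, 8 of 9 cells were cDC1-marked (88.9%, 51.8 to 99.7), and in mouse 3, 28 of 56 (50%, 36.3 to 63.7), with 20 cDC2-marked and 6 mature-marked cells. The intervals of the cDC1 share in mice 2 and 3 overlapped.

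The cDC1-marked cells led the other lists by more genes than the cDC2-marked cells did. The same lists marked the cells, so part of any lead was set by the choice. The median cell detected 9 cDC1 genes, 7 cDC2 genes or 10 mature genes of its own list, and led the next list by 7.5, 3 and 7 genes. A lead of a single gene marked 5 of the 21 cDC2-marked cells and none of the others. Both conventional lists had 3 or more detected genes in 14 cells, of which 10 were cDC2-marked. One cDC1-marked cell of mouse 3, with 7147 UMIs, held 8 cDC1 and 5 cDC2 genes, and carried 5 UMIs of Xcr1 next to 24 of Cd209a and 42 of Mgl2. When cells were thinned to 2000 UMIs, 61 had enough, and 33 were cDC1-marked, 17 cDC2-marked, 7 mature-marked and 4 unassigned. Of the unassigned cells, one of 11586 UMIs had 3 cDC1, 3 cDC2 and 5 monocyte genes, and the other had 1961 UMIs and a single subset gene.

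**Figure D2:**
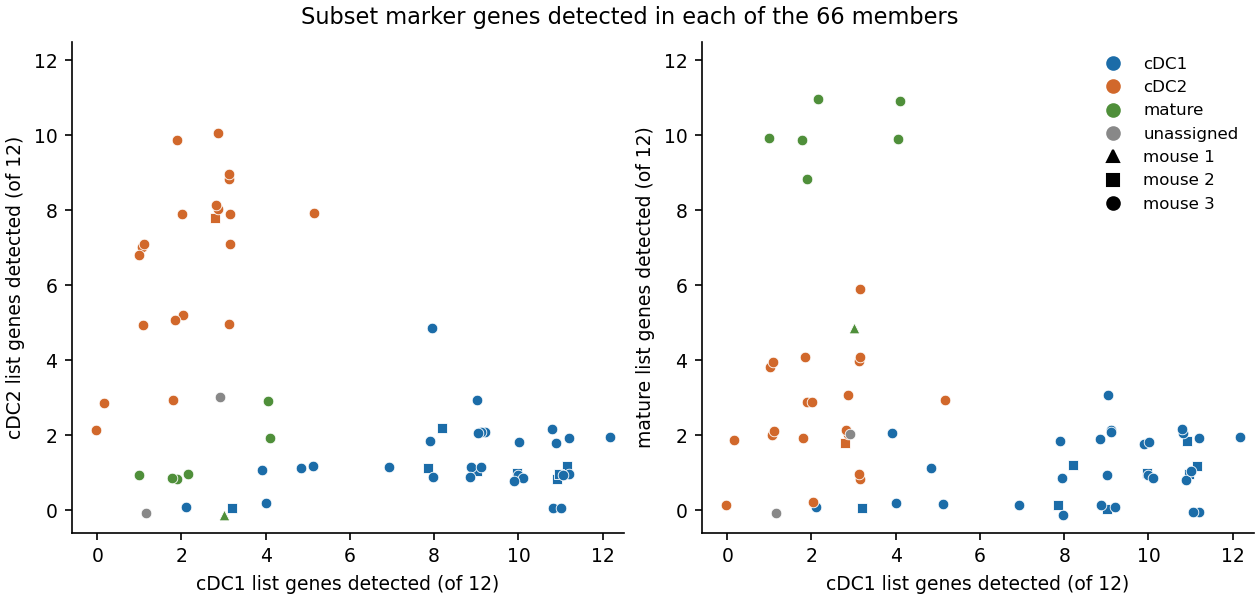
Each point is 1 of the 66 selected cells, placed by how many cDC1 list genes it detected and how many cDC2 (left) or mature (right) list genes it detected, out of 12 each; colour gives the subset and shape the mouse, with small shifts to part overlapping points. The cDC1-marked cells lie to the right with few genes of the other lists, and the mature-marked cell of mouse 1 detected 5 mature and 3 cDC1 genes. The lists plotted also marked the cells, so part of the separation was set by the choice.

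The cDC1 genes chose the cDC1-marked cells, and their levels describe them. Xcr1, the chemokine receptor that defines cDC1, was detected in 27 of 28 cDC1-marked cells of mouse 3 with a median of 5 UMIs and a maximum of 11. It was detected in 7 of 8 in mouse 2 with a median of 3.5. It was at 0 UMIs in the cDC2-marked cells of mouse 3, which allows up to 16.1 CPM, against 374 CPM (312 to 445) in the cDC1-marked cells. Irf8 stood at 1472 CPM in the cDC1-marked, 21.4 in the cDC2-marked and 266 in the mature-marked cells of mouse 3, and at 954 CPM in the cDC1-marked cells of mouse 2. Clec9a, a receptor for dead cells, stood at 144, 16.1 and 14.0 CPM, the integrin Itgae (CD103) at 409, 10.7 and 56.0 CPM, and the cross-presentation gene Wdfy4 at 565, 107 and 42.0 CPM. Of the insulin-rich cells, a cell type that should lack the gene, 0.106% carried an Xcr1 UMI, against 53.0% of the selected cells; their median depths were 7312 and 11529.5 UMIs.

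Genes outside the subset lists also differed in level between the subsets, and those named in the next sentences lead the ratio of 1 subset over the others in mouse 3 or come from the functional lists. Cd207 (langerin), a C-type lectin, stood at 403 CPM in the cDC1-marked cells of mouse 3 (339 to 477), detected in 24 of 28, and was at 0 UMIs in the cDC2-marked cells. It was detected in 6 of 8 cDC1-marked cells of mouse 2, at 308 CPM. The lysosomal thioesterase gene Ppt1 stood at 857, 42.8 and 14.0 CPM in cDC1-marked, cDC2-marked and mature-marked cells of mouse 3, and at 887 CPM in the cDC1-marked cells of mouse 2. The 2 mice thus gave like levels of both genes. The transcriptional regulator Id2, which is needed for cDC1 development, stood at 930, 74.9 and 504 CPM (800 in mouse 2), and the pore-forming Mpeg1 at 612, 42.8 and 140 CPM. In macrophage-like cells of mouse 3, Id2 and Mpeg1 stood at 314 and 474 CPM. The scavenger receptor Cd36 had 168 CPM in the cDC1-marked cells of mouse 3 and no UMI in the other subsets of that mouse.

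The cDC2-marked cells carried lectin receptors together with inflammatory genes. The lectins Mgl2 and Cd209a, from the list that chose them, had medians of 30.5 UMIs (0 to 45) and 9.5 UMIs (0 to 50) in the 20 cells of mouse 3, and Clec10a was detected in 11. Mgl2 stood at 2574 CPM against 153 in cDC1-marked and 238 in mature-marked cells, where 80.8% and 100% of its UMIs came from 1 cell each. Outside the list, the chemokine gene Ccl4 stood at 3066 CPM against 165 and 84.0, and was detected in 16 of 20 cells. The inflammatory cytokine gene Il1b stood at 2188 CPM against 353 and 868, and was detected in 18 of 20. Cxcl10, a chemokine induced by interferon, stood at 1536 CPM against 250 and 434, and the interferon-stimulated Isg15 at 824 against 29.4 and 350. Ifnb1, which encodes interferon beta, was detected in 9 of the 20 cells with up to 19 UMIs, in the single cDC2-marked cell of mouse 2 with 6 UMIs, and in 1 of 28 cDC1-marked cells of mouse 3, the same cell that held Cd209a. The monocyte-attracting chemokines Ccl2 and Ccl9 stood at 433 and 396 CPM, and at 2.94 and 5.89 CPM in cDC1-marked cells. Zeb2, a transcription factor of cDC2 and monocytic cells, stood at 289 CPM against 5.89 and 70.0, and the oxidase subunit gene Cybb at 508 against 17.7 and 28. Macrophage-like cells of mouse 3 also carried several of these genes. Ccl4 and Cybb stood there at 3905 and 587 CPM, and Isg15, Ccl2 and Ccl9 at 658, 202 and 179 CPM. Cxcl10, Zeb2, Ifnb1 and Il1b stood in the same macrophage-like cells at 1768, 285, 263 and 860 CPM. Those 4 values carry the scaling of the comparison further on, which differs from that of the other CPM given here. Ms4a4c and Lyz2, genes of the monocyte list, stood at 375 and 1043 CPM in the cDC2-marked cells against 17.7 and 512 in the cDC1-marked cells. One cDC2-marked cell of mouse 3 carried 8 of 8 endothelial genes and was the only selected cell among those with the highest doublet scores.

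The mature-marked cells were few and carried migration and T cell attracting genes. Ccr7 was detected in all 6 such cells of mouse 3 with 7 to 40 UMIs, and in the cell of mouse 1 with 11. In mouse 3 none of the 28 cDC1-marked cells carried it, and 5 of the 20 cDC2-marked cells did, with up to 4 UMIs. It stood at 1849 CPM (1547 to 2192) in the mature-marked cells of mouse 3. Fscn1, an actin-bundling protein of migrating dendritic cells, stood at 2045 CPM in mouse 3. The endothelial cells also carry it, with a UMI in 32.1% of them. Outside the list, the fatty acid binding protein gene Fabp5 had 6 to 105 UMIs in each of the 6 cells, 4314 CPM against 17.7 in cDC1-marked and 48.2 in cDC2-marked cells. Cd63, a tetraspanin of endosomes, stood at 1387 CPM against 8.83 and 16.1, Cd83, a maturation marker, at 868 against 215 and 332, and the inhibitory ligand Cd274 (PD-L1) at 168 CPM against 0 UMIs and 16.1. Cd63 also stood at 955 CPM in macrophage-like cells of mouse 3, and was detected in 83.3% of insulin-rich cells. In mouse 3, Fabp5 did not overlap between the 6 mature-marked cells and the cDC1-marked or cDC2-marked cells, which had at most 2 UMIs each. It was named for its ratio of mature-marked cells over the other subsets in this same mouse (81.9), which favours such a gap. Fabp5 also stood at 1332, 10.9 and 97.3 CPM in macrophage-like cells of mice 1, 2 and 3, and was detected in 29.7% of endothelial cells. Ccl17 and Ccl22, chemokines for Ccr4-bearing T cells, stood at 5224 and 2647 CPM, of which 78.6% and 65.1% came from 1 cell each. Il12b, the p40 chain of interleukin 12, was detected in 4 of the 6 cells and had no UMI in the other subsets of mouse 3. Like Ccl22, Il12b belongs to the mature list that chose these cells.

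**Figure D3:**
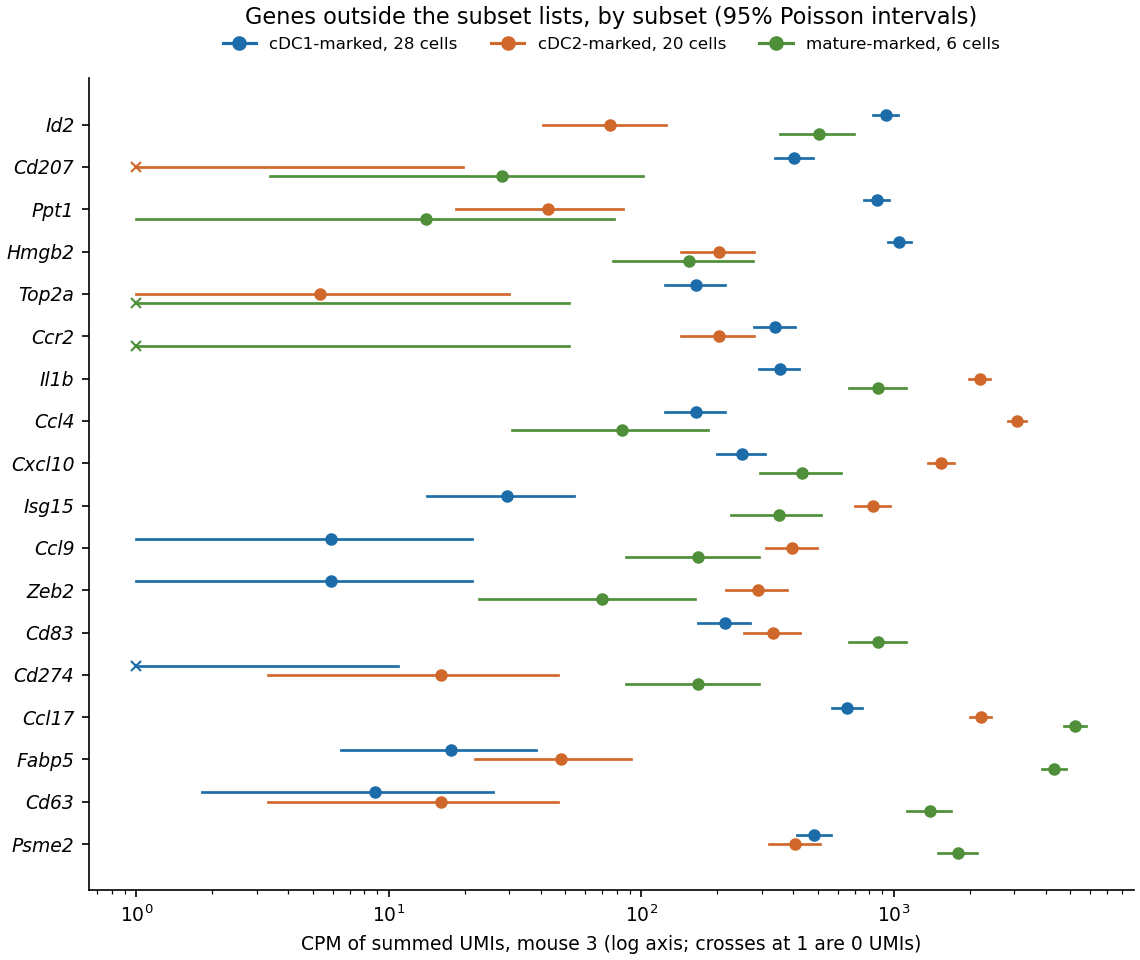
The plot gives the CPM of summed UMIs in mouse 3 (log axis) for 18 genes outside the subset lists, in cDC1-marked, cDC2-marked and mature-marked cells, with 95% Poisson intervals that are drawn from 1 upward and crosses at 1 for 0 UMIs. Id2, Cd207 and Ppt1 are highest in cDC1-marked cells, Il1b, Ccl4 and Cxcl10 in cDC2-marked cells, and Fabp5, Cd63 and Psme2 in mature-marked cells.

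The single cell of mouse 1 was the shallowest of the mature-marked cells, with 3592 UMIs, 816 genes and 10.1% mitochondrial UMIs. It carried 11 UMIs of Ccr7 but none of Fabp5 or Ccl17, which all 6 mature-marked cells of mouse 3 carried. It also carried 24 UMIs of Ly6a, 4 of Cd207 and 2 of Xcr1, genes that were at 0 or 1 UMI in the mature-marked cells of mouse 3. It is the sole source of every mouse 1 value, and those values weigh as much as the sums of mice 2 and 3 in each mean over mice.

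Cell cycle genes were detected mostly in cDC1-marked cells, although the intervals of the subsets overlapped. Of cells with at least 2000 UMIs, 16 of 34 cDC1-marked cells carried 3 or more of 18 cell cycle genes (47.1%, exact binomial interval 29.8 to 64.9), 5 of 19 cDC2-marked cells (26.3%, 9.15 to 51.2) and none of 7 mature-marked cells, which allows up to 42.9%. Median depths were 13579.5, 10075 and 10458 UMIs. After thinning to 2000 UMIs, 9 cDC1-marked cells remained (26.5%, 12.9 to 44.4), all of them among the 27 of mouse 3, and none of the cDC2-marked cells, which allows up to 15.8%. The macrophage-like cells gave 49 of 160 before thinning (30.6%) and 7 after it (4.38%). In mouse 3 the mitotic genes Mki67, Top2a and Ube2c stood at 162, 165 and 277 CPM in cDC1-marked cells, and at 16.1, 5.35 and 5.35 CPM in cDC2-marked cells. Ube2c was detected in only 7 of the 28 cDC1-marked cells and had no UMI in the cDC1-marked cells of mouse 2.

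Across the whole preparation, genes were ranked by the ratio of the selected cells over all other kept cells, with a pseudocount of 20 CPM. Genes of the rule were left out. The largest ratios were those of Cd52, at 92.8, and H2-Eb1, at 78.8. The choice by other class II genes favours a high ratio of H2-Eb1. Cd52, a small surface glycoprotein of leukocytes, stood at 3898, 3739 and 2338 CPM in mice 1, 2 and 3 and was detected in 66 of 66 cells. It was also detected in 89.7% of macrophage-like cells and in 1.90% of insulin-rich cells. Next came Ccr7 (54.4), the actin-binding Lsp1 (49.4), Ly6a (38.4), Cd83 (34.4), the aspartic protease Napsa (33.4), Ccl17 (30.7) and Jaml (30.4). Without mouse 1 the ratios of Cd52, H2-Eb1, Lsp1, Napsa and Ccl17 were 77.0, 51.8, 45.1, 29.9 and 43.9, and those of Ccr7, Ly6a, Cd83 and Jaml fell to 6.48, 1.1, 11.9 and 12.6. The high values of those 4 thus rest on the cell of mouse 1: Ccr7 stood at 3062, 0 and 229 CPM and Ly6a at 6682, 43.6 and 37.6 CPM in the 3 mice.

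The selected cells were then compared with the macrophage-like cells of the same mice, which asks how the 2 class II bearing populations of islets differ outside the genes that separated them. The macrophage-like cells were chosen by C1q RNA and numbered 15, 47 and 122. UMIs were summed per mouse and class and tested with edgeR's quasi-likelihood test with the mouse as a block. Of 2982 genes tested, 109 were higher (3.66%) and 260 lower (8.72%) in the selected cells at a Benjamini-Hochberg adjusted p under 0.05. The median log2 difference over all genes tested was -0.07. Without mouse 1, whose sum is 1 cell, 4894 genes were tested, 288 higher (5.88%) and 439 lower (8.97%). Without mouse 2 the counts were 45 and 100, and without mouse 3 they were 11 and 19. Of the 369 genes called with 3 mice, 346 were called again without mouse 1, 62 without mouse 2 and 30 without mouse 3, each in the same direction. Scaling to library totals in place of the trimmed mean of M-values (TMM) gave 242 higher and 300 lower, so that 44.6% of calls were higher against 29.5%. It moved the median of all genes to 0.12. The selected cells were also deeper than the macrophage-like cells, with medians of 11529.5 against 7696 UMIs.

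The genes named here are those with the largest differences among genes that went the same way in all 3 mice, which requires at least 1 UMI of a higher gene in the single cell of mouse 1. Ccl17 (4.84), Wdfy4 (3.05), Naaa (2.95) and Ccr7 (2.88) also passed and are given with their lists. Xcr1 (chromosome 9, 123852315 to 123862029, GRCm38) stood at 316, 325 and 239 TMM-scaled CPM in the selected cells of mice 1, 2 and 3, and at 0, 3.93 and 37.2 CPM in the macrophage-like cells. The 2 classes did not overlap, which the choice of genes by size and direction favours, and the value of mouse 1 is 2 UMIs. Xcr1 was higher by 3.42 ± 0.44 on the log2 scale (SE, edgeR adjusted p = 3.64e-12), in 3 of 3 mice. Traf1, an adaptor of tumour necrosis factor receptors, stood at 316, 516 and 859 CPM against 0, 19.7 and 148 CPM, higher by 3.34 ± 0.61 (edgeR adjusted p = 2.14e-06). Mcemp1 had the largest rise among the genes so chosen, 3.56, at 158, 56.0 and 188 CPM against 13, 0 and 17.4 CPM; in mouse 1 the value of 158 CPM is 1 UMI. The other higher genes chosen were the nuclease Dnase1l3 (3.36), P2ry10 (3.28), the leukocyte receptor Slamf7 (3.1), Cd24a (2.99), Tnni2 (2.88), the peptidase Dpp4 (2.82) and Napsa (2.74). All 10 were called without mouse 1. Xcr1, Traf1, Cd24a and Napsa were not called without mouse 2, and Mcemp1, P2ry10, Dpp4 and Napsa were not called without mouse 3.

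The genes that fell most by the same rule include macrophage genes, several of which were not counted at all in the selected cells. Apoe (chromosome 7, 19696109 to 19699188), the lipid carrier apolipoprotein E, had 0, 1 and 13 UMIs in the selected cells and 2879, 6999 and 14714 UMIs in the macrophage-like cells. Over pooled counts its CPM was 824-fold higher in macrophage-like cells (95% interval of the count ratio 491 to 1508), and the edgeR adjusted p was 5.88e-10. Ms4a7, a membrane protein of macrophages, had 1 UMI against 1956, a ratio of 918 (165 to 36268), and Trem2, a lipid-sensing receptor, had 2 UMIs and a ratio of 210 (58.0 to 1738). The chemokine Cxcl14 had 1 UMI and a ratio of 259 (46.4 to 10267). Against a limit of 3 counts over the 3 sums, Tmem119 was at least 35.2-fold lower, Olfml3 at least 29.4-fold, the Fc receptor Fcgr4 at least 22.2-fold, Lilra5 at least 21.3-fold, the scavenger receptor Stab1 at least 19.1-fold and the transporter Slco2b1 at least 12.7-fold. These 10 genes were all called without mouse 1. Without mouse 2, Ms4a7, Cxcl14 and Trem2 were not called, and without mouse 3, Apoe and Tmem119 were the only ones called. The C1q threshold chose both classes, so genes that go with C1q among islet leukocytes are drawn apart by the choice itself.

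**Figure D4:**
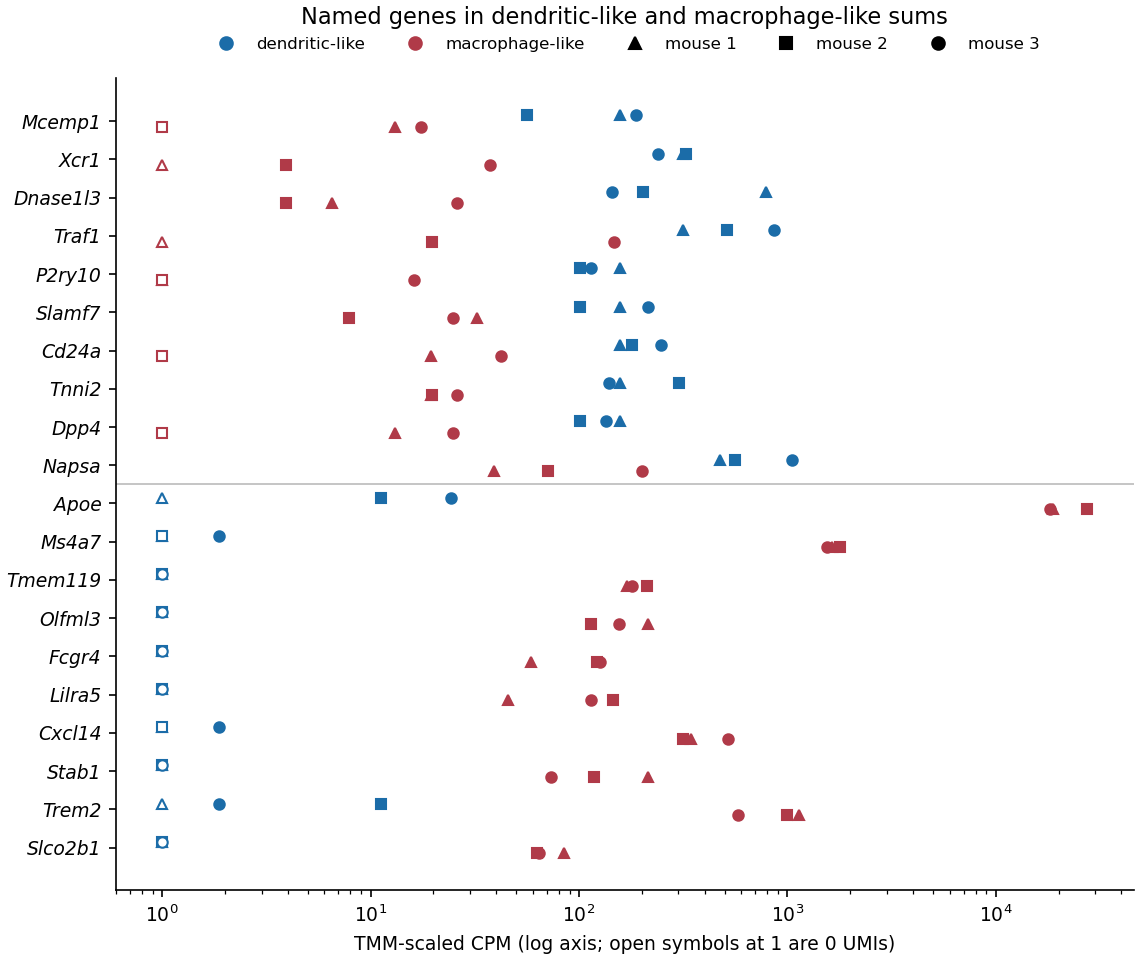
Points give the TMM-scaled CPM (log axis) of the 20 named genes in each mouse's summed selected cells and macrophage-like cells; open symbols at 1 stand for 0 UMIs. The 10 upper genes are higher in every mouse in the selected cells, and the 10 lower genes have at most 24.4 CPM there.

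Antigen presentation genes mostly did not pass the test. Of 9 class II genes and regulators tested, H2-Oa, which restrains peptide exchange, was higher (2.73) and Lgmn, a lysosomal protease, was lower (-4.70), both with edgeR adjusted p under 0.05; the list median was 0.18 against -0.07 over all genes. H2-Eb1 differed by -0.03 (edgeR adjusted p = 0.996). Of 15 class I loading genes 1 passed, Wdfy4, higher by 3.05, and the list median was 0.41. Without mouse 1, 2 of 11 class II genes were higher, with H2-Ob (2.96) added, and 6 of 17 class I loading genes were higher and 1 lower. For co-stimulation and co-inhibition, the T cell ligand Tnfsf9 (1.67) and Pvr (1.27) were higher, and Vsir (-2.24) and Lgals9 (-1.58) lower, of 9 tested.

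Several chemokine genes were lower in the selected cells. Of 12 chemokine genes tested, Ccl17 was higher (4.84), and Ccl12 (-5.77), Ccl3 (-4.15), Ccl4 (-3.97), Cxcl2 (-2.78) and Cxcl1 (-2.32) were lower, with a list median of -1.65. Without mouse 1, 2 of 14 were higher and 6 lower; Ccl4 (-3.27, edgeR adjusted p = 0.443) and Cxcl1 (-2.18, edgeR adjusted p = 0.200) were then not called. Of 6 chemokine receptors, Xcr1, Ccr7 (2.88) and Ccr2 (1.96) were higher and Cx3cr1, the fractalkine receptor, was lower (-5.10). Of 6 cytokines Il1a was lower (-1.80). Of 8 growth factor receptors Lifr (-2.26) and Ifnar2 (-1.50) were lower. Without mouse 1, 11 growth factor receptors were tested and 2 were higher, among them Kit (3.0), the stem cell factor receptor.

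Among 15 transcription factors, Rbpj (1.71) and Notch2 (1.35), through which Notch signals act in dendritic cells, were higher, and Maf (-3.69), a macrophage factor, and Zeb2 (-1.84) were lower. Without mouse 1 the counts were 5 higher and 2 lower of 17, and Zeb2 was not called. Of 7 pattern recognition genes Tlr2 (-2.47), Cd14 (-2.79) and Ifih1 (-1.27) were lower. Without mouse 1, 11 were tested, 6 were lower and 1 was higher, Tlr3 (3.09), the receptor for double-stranded RNA that the cDC1 list also holds. Of 10 uptake and scavenger receptors 7 were lower, among them Fcgr3 (-4.80) and Axl (-2.15), and Cd36 was higher (1.79); the list median was -2.46. Without mouse 1, 6 of 16 were higher and 8 lower, and the lectin Ly75 (DEC-205, 4.04), which feeds antigen to class II, was among the higher.

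Many genes of lysosomal digestion and several of lipid handling were lower. Of 14 lysosome and protease genes 8 were lower and none higher, with a median of -1.93, among them Ctsd (-4.85), Ctsl (-4.32) and Ctsb (-3.95), cathepsins that degrade protein in lysosomes. Ctss differed by -2.47 with an edgeR adjusted p of 0.0626, and it passed without mouse 1. Of 10 lipid handling genes 4 were lower, with a median of -1.58. Of 4 complement genes outside C1q 2 were lower, C3ar1 (-4.00) and C5ar1, which had 2 UMIs in the selected cells.

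Some actin and migration genes were higher. Of 15 tested, Lsp1 (2.44), Cnn2 (2.09), S100a4 (2.02) and S100a6 (1.72) were higher and none was lower, with a list median of 0.996. Without mouse 1, 11 of 16 were higher and none lower. Cell cycle genes gave no call among 3 tested, and without mouse 1, Top2a (2.03) and Birc5 (1.78) were higher of 8. Of 10 interferon-stimulated genes Ifit2 (-1.43) and Rsad2 (-1.37) were lower. Of 16 genes that respond to tissue dissociation, Ier3 (-1.77) was lower, and without mouse 1, 7 were lower and none higher, among them Jun (-1.65), Egr1 (-1.41) and Fos (-1.03). The part of handling in the comparison was not tested. The acinar list, a measure of free RNA, gave no call among 9 genes with 3 mice, and all 9 were lower without mouse 1. Over all 17 functional lists, 169 genes were tested, with 15 higher and 42 lower. Of all 2982 genes tested, 3.66% were higher and 8.72% lower. Without mouse 1 the list counts were 44 and 62 of 204, beside 5.88% and 8.97% of all 4894 genes tested. They were 7 and 7 of 199 without mouse 2, and 2 and 5 of 130 without mouse 3. Over all genes, 45 and 100 were called without mouse 2, and 11 and 19 without mouse 3.

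**Figure D5:**
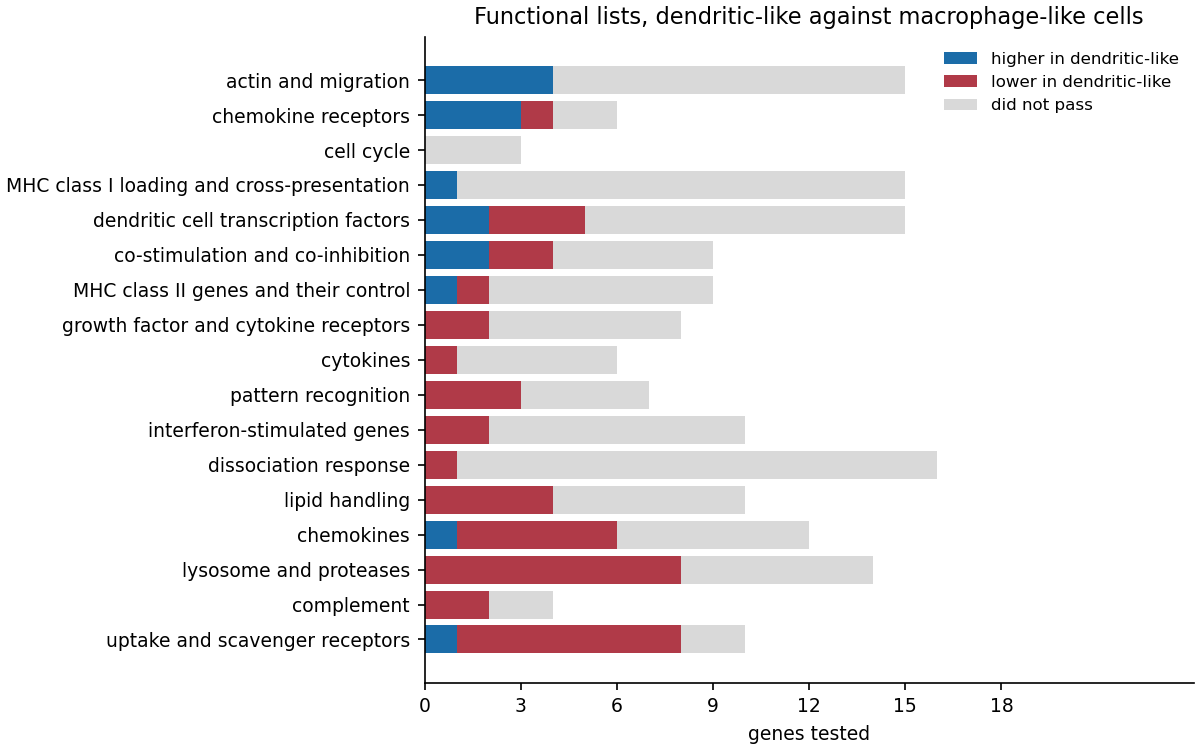
Bars count the tested genes of each of 17 functional lists that were higher (blue), lower (red) or did not pass (grey) in the selected cells against macrophage-like cells, at an edgeR adjusted p under 0.05 with 3 mice. Lysosome and protease genes and uptake receptors have 8 of 14 and 7 of 10 lower, and actin and migration genes the most higher calls (4 of 15).

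The subset lists in the same comparison show which dendritic genes differed between the selected and the macrophage-like sums. The selected sums mix subsets, with 36 cDC1-marked and 21 cDC2-marked cells of 66, so a call need not hold in each subset. Of 6 cDC1 genes tested Xcr1, Wdfy4 and Naaa were higher and none was lower. Of 6 cDC2 genes, Mgl2 (2.13), Tnip3 (1.53) and Clec12a (1.16) were higher, and Clec4a2, Cd300a and Sirpa were lower. Irf8, the main cDC1 factor, had a UMI in 63.6% of the selected cells and in 65.8% of the macrophage-like cells, at pooled levels of 854 and 259 CPM. Its log2 difference was 1.46 with 3 mice (edgeR adjusted p = 0.164) and 1.69 without mouse 1, which passed (edgeR adjusted p = 5.61e-05). Mgl2 had a UMI in 37.9% and 29.3%. Xcr1, Cd209a and Ccr7 were scarce in the macrophage-like cells, at 3.26%, 1.63% and 1.09%. Without mouse 1, Clec9a (2.47), Cd209a (2.94), Clec10a (1.64), Ccl22 (3.31) and Fscn1 (2.0) were higher as well. Of the 184 macrophage-like cells, 30 carried at least 1 of 8 dendritic markers. With those cells left out, an alternative chosen after seeing the data, the counts were 124 higher and 261 lower. Epcam, an adhesion gene of epithelium and of some dendritic cells, was higher without mouse 1 (1.71). It was detected in 36.4% of the selected cells, 10.3% of macrophage-like cells and 64.0% of insulin-rich cells, and the part of free RNA in it was not tested.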

How the data were processed

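Single-cell 3′ RNA of islets was measured in 3 libraries, 1 per mouse. The deposited matrices hold counts, as whole UMIs per gene and barcode, and were used as deposited; the submitters' processing notes name Cell Ranger 2.2 and mm10, while the file headers name version 3.1.0. How barcodes were selected is not given in the sources used here. Of 31053 feature IDs, 30934 were found in GENCODE M21 (GRCm38). The cells and the 35 gene lists (395 genes) were chosen with earlier results of these data known. Cells were filtered by the thresholds in the report, and levels are CPM of summed UMIs. Cells were scored for doublets with Scrublet (scanpy 1.11.5); the highest scores (0.8% per 1000 barcodes, 317 cells) held 1 selected cell, and their removal was an alternative, while the automatic threshold marked 31 of 7490 cells (0.414%), too few to have worked. Doublets were otherwise left in.

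Sums per mouse of the selected and macrophage-like cells entered edgeR 4.0.16 (R 4.3.3, limma 3.58.1; filterByExpr, TMM, robust glmQLFit, glmQLFTest, FDR 0.05) with the mouse as a block, because both sums of a mouse come from the same animal. Deviations from the class means correlated at 0.0973, 0.168 and 0.290 within mice 1, 2 and 3, and at -0.200 to 0.00597 between mice. Genes that chose the cells were left out of the counts of calls. Some list genes are not reported here by name. Named genes are the 10 largest log2 differences in each direction that passed, went the same way in every mouse, reached 1 on the log2 scale, averaged at least 50 CPM in the class with more RNA of the gene, and have no numbered gene-model symbol. In functional lists up to 4 genes with the smallest p are named, with further genes chosen after their values were seen, as were the genes of the subset plot. Alternatives covered scaling, DESeq2 1.42.0, filters, thinning to 2000 UMIs, class thresholds, doublets, shared barcodes and each mouse left out. Intervals and limits at 0 (3 counts) cover counting error only. Python 3.11.15, numpy 2.4.6, scipy 1.17.1 and pandas 2.3.3 were used.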

Additional observations from a re-analysis of the deposited data

Results flagged for a closer look

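Barcodes that met every other condition of the selection but missed 1 were not part of the comparisons, and they carry class II RNA as well. Of these, 7 had under 500 genes, with a median of 966 UMIs; 2 came from mouse 1 and 5 from mouse 3, and 4 were cDC1-marked, 1 cDC2-marked and 2 unassigned. A further 26 had no UMI of Ptprc, Itgax or Flt3, with a median of 4570 UMIs, of which 5, 6 and 15 came from mice 1, 2 and 3. Of those 26, 6 were cDC1-marked, 9 mature-marked and 11 unassigned; 11 carried 3 or more endothelial genes and 7 carried 3 or more duct genes. Last, 11 had 20% or more of their UMIs from hormone genes, 6 from mouse 2 and 5 from mouse 3, with a median of 4291 UMIs; 2 were cDC1-marked, 4 cDC2-marked and 5 unassigned.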

How the results depend on the processing

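With 3 mice as the design, the share of selected cells ranged from 0.210% to 0.936% as each mouse was left out, that of cDC1-marked cells from 49.1% to 80%, of cDC2-marked cells from 10% to 35.1% and of mature-marked cells from 9.23% to 12.3%. Subsets marked by their defining genes alone gave 40.9% cDC1-marked and 15.2% cDC2-marked cells. Against macrophage-like cells, leaving out each mouse gave 11 to 288 higher and 19 to 439 lower genes, with the most without mouse 1. The 109 higher genes became 242 with library totals and 235 with at least 1000 genes per cell. Higher and lower genes numbered 254 and 405 with no filter on low counts, 256 and 397 at 10% mitochondrial UMIs, 292 and 443 with hormone UMIs under 5%, and 22 and 58 of 587 tested after thinning. The filters on genes, mitochondrial and hormone UMIs each dropped the only cell of mouse 1, so they leave 2 mice. DESeq2 gave 83 and 266. Without the replicate block the counts were 104 and 282, within 1.5 times. Over 82 named genes and 18 alternatives 1387 values could be computed (29 genes after thinning, 60 without mouse 3). Of these, 1211 kept their side of the threshold, 119 lost it and 57 gained it. No value changed direction where the gene passed in the main fit or in the alternative. Changes of direction where neither passed were not counted. Tmem119, Olfml3, Fcgr4, Lilra5 and Stab1 were not called by DESeq2. The planned test of cDC1-marked against cDC2-marked cells was not run, because only mouse 3 had 5 or more cells of both. Counts in mouse 1 limit every value there, since 1 UMI is 278 CPM, or 158 after TMM scaling.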
